A study of Mus musculus with 33 samples.

Results

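A set of 7 mouse inflammatory response genes was examined for the chromatin proteins listed around them in C2C12 cells: Il6, Ccl2, Ccl7, Cxcl1, Cxcl5, Nfkbia and Tnfaip3. They lay in 5 windows of the mm9 build, namely chr5:30325000-30355000 for Il6, chr11:81840000-81870000 for Ccl2 and Ccl7, chr5:91180000-91330000 for Cxcl1 and Cxcl5, chr12:56583000-56603000 for Nfkbia and chr10:18710000-18750000 for Tnfaip3. Every peak that overlapped a window by at least 1 bp was taken, which gave 84 of 493022 nuclear peaks in 23 lists. Of these, 59 stood in the 9 pooled or single lists and 25 in the 14 replicate lists. A peak is a stretch of DNA that was enriched in a chromatin immunoprecipitation, in which an antibody pulls down a protein together with the DNA it holds and that DNA is sequenced.

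C2C12 is an established mouse line of muscle precursor cells (myoblasts), which join into muscle fibre-like myotubes in low serum. Myotubes had spent 96 h (4 days) in 2% horse serum, and myoblasts were growing in 10% FBS. In myotubes the lists were of ING1 (3 replicates), Sin3A (2 replicates) and LSD1 (1 list). In myoblasts they were of ING1, Menin and MLL1 (2 replicates each), Wdr5 (3 replicates), LSD1 and MLL3 (1 list each). ING1 was pulled down by anti-FLAG from a stable line that carried Flag-tagged ING1 in the retroviral vector pBabe-puro, so its peaks are those of an added, tagged protein. The other proteins were pulled down with antibodies against themselves from cells for which the labels name no transgene. The MLL1 samples carry a Menin source name but an MLL1 antibody, and the series design places Sin3A in myoblasts where its sample labels say myotubes. The sample titles were followed in both cases. No label says that replicates were separate cultures, so p-values measure only the spread between these samples. The lists give both ends of each peak without height, fold or significance. The lists of single replicates ran from 126 to 23164 nuclear peaks and the pooled or single lists from 4442 to 218204, and the read depth behind them is unknown. Muscle marker genes could not be checked, because no expression values were used here.

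NF-κB is a transcription factor that waits in the cytoplasm bound to inhibitors of the IκB family and enters the nucleus after signals such as TNF or interleukin 1. Nfkbia encodes IκBα, the inhibitor that is destroyed on signalling and then made anew as an NF-κB target. Tnfaip3 encodes A20, a ubiquitin-editing enzyme that shuts off the upstream signal and is likewise an NF-κB target. Il6 encodes interleukin 6, a cytokine that muscle also releases. Ccl2 and Ccl7 encode chemokines that draw monocytes, and Cxcl1 and Cxcl5 encode chemokines that draw neutrophils. Among the mapped proteins, Menin and Wdr5 belong to complexes around MLL methyltransferases that methylate lysine 4 of histone H3 (H3K4), MLL1 and MLL3 are such enzymes, ING1 binds trimethylated H3K4 and belongs to Sin3 histone deacetylase complexes, Sin3A is the scaffold of those complexes, and LSD1 removes methyl groups from H3K4.

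RefSeq promoter sequences, 250 bases before to 50 bases after the transcript start, were held for 4 of the 7 members: Il6, Cxcl1, Nfkbia and Tnfaip3. They are shown because the inhibitor genes and the cytokine genes differed in the proteins listed around them, and so that the NF-κB letters in each can be read. Capitals mark matches to fixed search patterns on both strands. The κB motif was searched as GGGA, then any 4 bases, then CC. Sites of other κB forms were not searched and stay in lower case. The AP-1 motif was searched as TGANTCA (AP-1 is the Fos and Jun factor that often acts with NF-κB). For Tnfaip3 the outermost of its annotated starts is shown.
Nfkbia (GRCm38.p6, chr12:55492598-55492897, minus strand): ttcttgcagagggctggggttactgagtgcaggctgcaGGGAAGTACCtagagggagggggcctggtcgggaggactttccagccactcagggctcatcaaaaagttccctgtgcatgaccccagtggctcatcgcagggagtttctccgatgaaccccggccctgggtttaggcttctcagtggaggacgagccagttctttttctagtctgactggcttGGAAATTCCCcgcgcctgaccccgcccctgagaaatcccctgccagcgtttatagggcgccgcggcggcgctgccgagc
Tnfaip3 (GRCm38.p6, chr10:19015361-19015660, minus strand): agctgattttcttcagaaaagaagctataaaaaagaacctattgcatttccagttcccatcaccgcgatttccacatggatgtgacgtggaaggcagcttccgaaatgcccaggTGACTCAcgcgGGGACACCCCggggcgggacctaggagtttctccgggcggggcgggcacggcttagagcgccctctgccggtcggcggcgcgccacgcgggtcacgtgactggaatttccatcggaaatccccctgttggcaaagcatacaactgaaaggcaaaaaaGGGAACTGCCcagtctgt
Il6 (GRCm38.p6, chr5:30012864-30013163, plus strand): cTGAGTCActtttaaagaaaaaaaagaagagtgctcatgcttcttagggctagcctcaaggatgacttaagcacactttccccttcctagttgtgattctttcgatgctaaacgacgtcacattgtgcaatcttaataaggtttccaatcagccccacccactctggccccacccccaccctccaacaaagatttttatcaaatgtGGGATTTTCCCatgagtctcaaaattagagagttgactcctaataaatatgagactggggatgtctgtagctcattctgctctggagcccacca
Cxcl1 (GRCm38.p6, chr5:90890995-90891294, plus strand): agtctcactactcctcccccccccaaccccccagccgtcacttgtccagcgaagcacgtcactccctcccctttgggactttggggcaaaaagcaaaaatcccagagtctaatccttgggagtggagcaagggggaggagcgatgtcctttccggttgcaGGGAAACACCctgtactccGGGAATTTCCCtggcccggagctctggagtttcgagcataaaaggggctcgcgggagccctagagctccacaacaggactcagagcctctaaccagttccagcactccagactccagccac

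The Nfkbia promoter held the κB motif at 2 places, GGGAAGTACC beginning 212 bases before the start and GGAAATTCCC, a match on the reverse strand, beginning 29 bases before it. The Tnfaip3 promoter held GGGACACCCC beginning 125 bases before the start and GGGAACTGCC from base 33 of the transcript, and an AP-1 motif TGACTCA beginning 136 bases before the start. In the Il6 promoter GGGATTTTCC on the strand shown, beginning 44 bases before the start, overlapped GGATTTTCCC on the reverse strand, which counts as 1 place, and TGAGTCA stood 249 bases before the start. The Cxcl1 promoter held GGGAAACACC beginning 90 bases and GGGAATTTCC beginning 71 bases before the start, the second again overlapped by a reverse match. All 4 promoters thus held a κB place, against 20.7% of 32851 promoters, and 3 of them held at least 2 places, against 3.02%. An AP-1 motif stood in 2 of the 4, against 7.81% of promoters. Tnfaip3 had 22 CpG dinucleotides in its 300 bases and Nfkbia 15, while Cxcl1 had 10 and Il6 had 3. The median promoter had 7, and 23.1%, 34.6%, 43.5% and 76.7% of promoters had at least as many as Tnfaip3, Nfkbia, Cxcl1 and Il6. These values and the counts over the 4 promoters use the outermost Tnfaip3 start. The promoter at its inner start, chr10:19011914-19012213, had 6 CpG, and 56.4% of promoters had at least as many. It held 1 κB place and 0 AP-1 motifs. The κB places are matches to the searched pattern only, so other forms of the site are not counted. The matches are descriptions of the letters, not evidence that a factor was bound. The κB pattern was fixed for these members, and Nfkbia and Tnfaip3 are NF-κB targets, so the shares beside all promoters are no test. The 32851 promoters can include more than 1 start of a gene, as for Tnfaip3. The sequences come from GRCm38.p6 and the peaks from mm9, so whether a peak covered a promoter was not determined.

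The windows of the NF-κB inhibitors and those of the cytokine and chemokine genes differed in which proteins were listed in them. ING1 of both states and Sin3A had 1 peak each at Nfkbia and at Tnfaip3 and none at Il6, at Ccl2 and Ccl7, or at Cxcl1 and Cxcl5. At Tnfaip3 8 of the 9 lists had a peak, all but LSD1 of myoblasts, and at Nfkbia 6 had one. The Ccl2-Ccl7 window held peaks of 4 lists, the Cxcl5-Cxcl1 window of 3 and the Il6 window of 2. Menin, Wdr5, MLL1 and MLL3 accounted for all 30 pooled or single peaks of the cytokine and chemokine windows (210 kb) and for 22 of the 29 in the inhibitor windows (60 kb). Menin, Wdr5 and MLL3 are the longest lists, while MLL1 is a short one with 8892 peaks. The 4 lists together held 87.1% of all 409322 pooled or single peaks. Their share was 100% in the cytokine and chemokine windows and 75.9% in the inhibitor windows. In the inhibitor windows Menin had 167 peaks per Mb and covered 25.9% of the sequence, against 26.6 per Mb and 2.62% over all chromosomes. Wdr5 covered 8.79% of them, against 1.74% over all chromosomes. These are counts within 1 list per protein and state, and no test was made between the windows. The contrast of inhibitor windows with cytokine and chemokine windows was not among the planned comparisons.

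**Figure D1:**
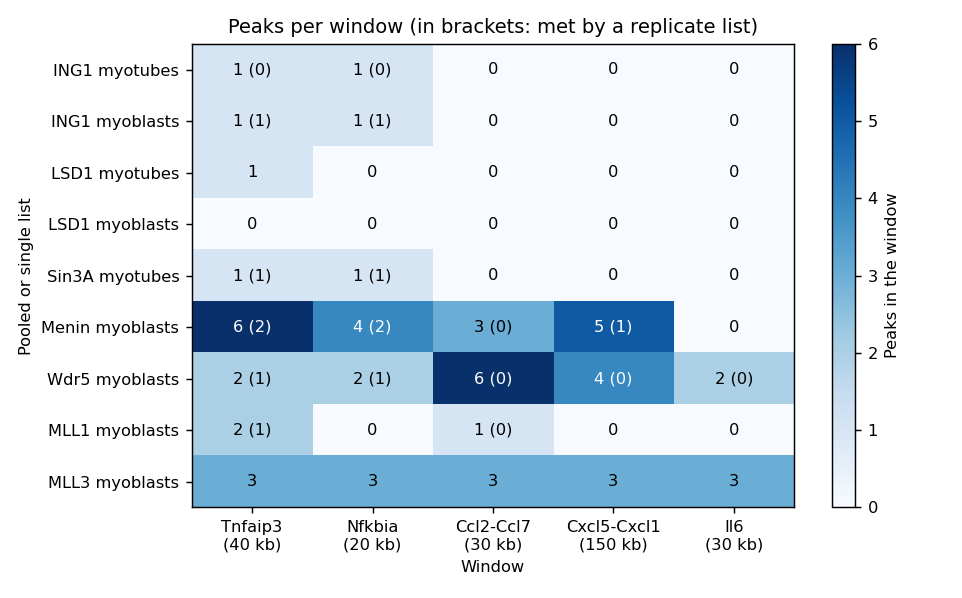
Number of peaks of each pooled or single list (rows) in each window (columns, with its length in kb); the number in brackets counts the pooled peaks that met a peak of at least 1 replicate list of the same group, and LSD1 and MLL3 have no replicate lists. ING1 and Sin3A have a peak only in the Tnfaip3 and Nfkbia columns, MLL3 has 3 in each column, and of the 21 pooled peaks in the 3 right columns 1 met a replicate list.

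Tiles of each window's own length, laid end to end on chromosomes 1 to 19 and X, served as background. A peak of ING1 in myotubes, ING1 in myoblasts and Sin3A stood in 10.5%, 9.39% and 15.3% of 40 kb tiles, the length of the Tnfaip3 window. At that length Menin was found in 31.1%, Wdr5 in 46.9% and MLL1 in 10.1% of tiles. In 20 kb tiles, the length of the Nfkbia window, the shares were 5.89% for ING1 in myotubes, 5.19% for ING1 in myoblasts, 8.77% for Sin3A, 21.9% for Menin and 31.5% for Wdr5. The proteins absent from Nfkbia were in 6.43% (LSD1 in myotubes), 2.88% (LSD1 in myoblasts) and 5.56% (MLL1) of 20 kb tiles. For ING1 and Sin3A the absence from Il6 and from Ccl2-Ccl7 is the usual state of a 30 kb tile: 8.31% held ING1 in myotubes, 7.37% ING1 in myoblasts and 12.2% Sin3A. The same length held LSD1 in myotubes in 8.57%, LSD1 in myoblasts in 4.17% and MLL1 in 7.86% of tiles.

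Of the 40 kb tiles 4.77% held peaks of at least 8 lists, as the Tnfaip3 window did. Of the 20 kb tiles 5.18% held peaks of at least 6 lists, as the Nfkbia window did. At least 4 lists, as in the Ccl2-Ccl7 window, were found in 13.6% of the 30 kb tiles, and at least 2, as in the Il6 window, in 44.1%. At least 3 lists, as in the 150 kb Cxcl5-Cxcl1 window, were found in 55.7% of tiles of that length. Cxcl5-Cxcl1 and Il6 were therefore close to an ordinary tile in this count, and the inhibitor windows were in its upper tail. The windows were placed on genes and the tiles were not, and no gene annotation of mm9 was used here, so windows of other genes could not serve as background. Tiles that held a peak of any list gave shares of 5.99% for Tnfaip3 and 7.60% for Nfkbia.

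**Figure D2:**
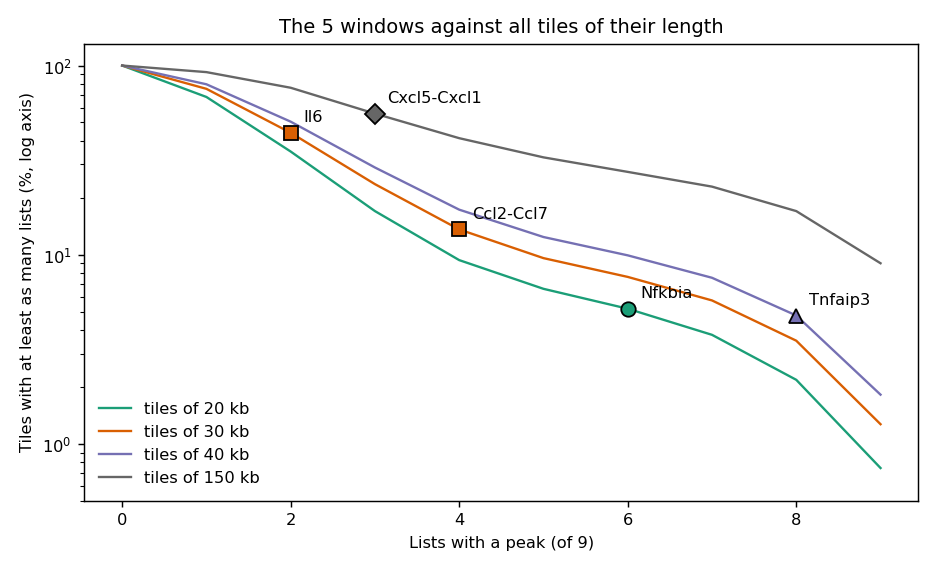
Share of all tiles (vertical, percent, log axis) that held peaks of at least the given number of lists (horizontal, of 9), 1 line for each tile length, with each window as a symbol on the line of its own length. Tnfaip3 and Nfkbia lie at 4.77% and 5.18%, and Il6 and Cxcl5-Cxcl1 at 44.1% and 55.7%.

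At Tnfaip3 a wide Menin peak met peaks of 6 other lists at its right end. That Menin peak, chr10:18729592-18735759, was 6168 bp wide, and 314 of the 70050 Menin peaks (0.448%) were at least that wide. With 5 further Menin peaks it brought Menin to 28.0% of the 40 kb window, a coverage that 1.61% of 40 kb tiles reached. At least as many Menin peaks stood in 5.97% of those tiles. These were the widest peaks of their lists in the window: ING1 of myotubes at chr10:18734709-18735240, ING1 of myoblasts at chr10:18734557-18735289, Sin3A at chr10:18734066-18735318, Wdr5 at chr10:18733982-18735793, MLL1 at chr10:18734623-18735333 and MLL3 at chr10:18735385-18736331. The first 5 of them shared 532 bp with the Menin domain, namely the whole of the ING1 peak of myotubes, and the MLL3 peak began to the right of that stretch. Of the 8196 ING1 peaks of myoblasts, 24.8% shared a base with ING1 of myotubes, Sin3A, Wdr5, Menin and MLL1 together in this way.

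The replicate lists bore unevenly on the Tnfaip3 site. Of the 532 bp, Wdr5 replicates 1, 2 and 3 covered 90.0%, 100% and 100%, and Menin replicates 1 and 2 covered 93.8% and 100%. Sin3A replicate 1, MLL1 replicate 1 and ING1 myoblast replicate 2 each covered 100%, and the other replicate list of each of these groups had nothing there. None of the 3 ING1 myotube replicates had a peak at Tnfaip3. The wide Menin domain itself was split in the replicates, into 2603 bp and 2803 bp in replicate 1 and into shorter pieces of 313 to 1577 bp in replicate 2. A second pooled Menin peak to its left, chr10:18727185-18729446 (2262 bp), also met both replicates. Wdr5 and Menin were thus listed there in every replicate, Sin3A, MLL1 and ING1 of myoblasts in 1 of 2, and ING1 of myotubes in the pooled list alone. Over the whole pooled lists 4.37% of Wdr5 and 12.5% of Menin peaks met every replicate list. At least 1 replicate list was met by 63.4% of Sin3A, 40.5% of MLL1, 58.4% of ING1 myoblast and 32.7% of ING1 myotube peaks. For Sin3A, MLL1 and ING1 of myoblasts the replicate list without a peak at this site was the short one (430, 466 and 428 peaks). The ING1 myotube replicates were also short, with 2163, 2502 and 126 peaks against 9698 in the pooled list.

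**Figure D3:**
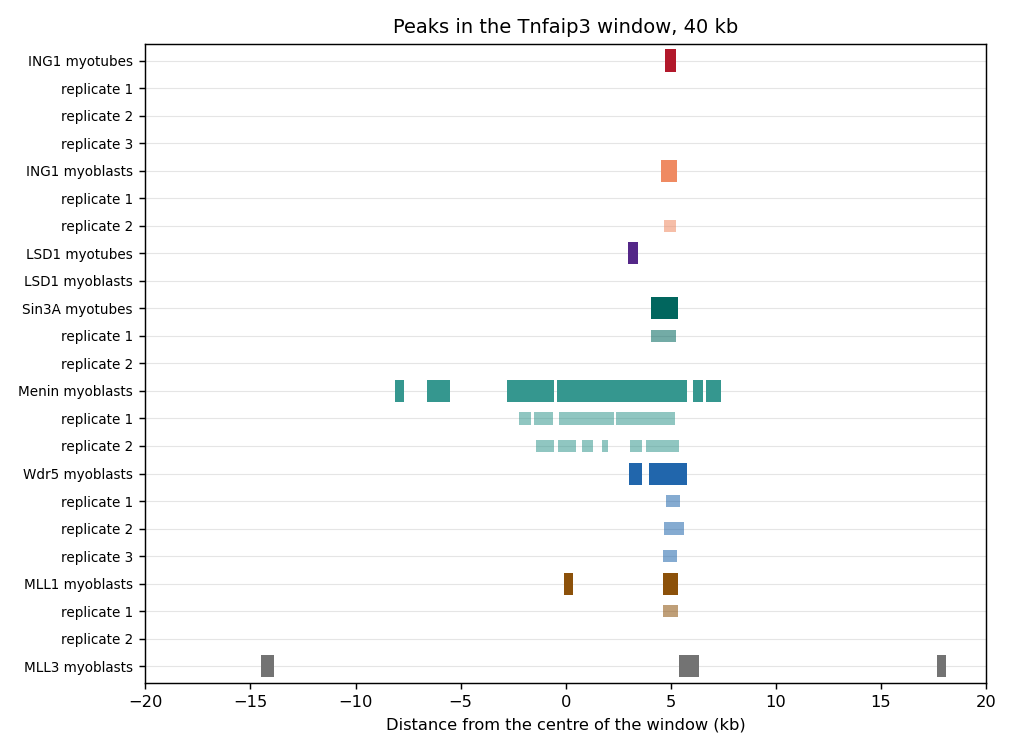
Peaks in the 40 kb Tnfaip3 window by distance from its centre (kb); thick bars are pooled or single lists and thin bars the replicate lists of the group named above them. ING1 of both states, Sin3A, Wdr5 and MLL1 meet near +5 kb at the right end of a 6168 bp Menin peak, while the LSD1 peak of myotubes lies to the left of that site.

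LSD1 was listed at only 1 of the 7 genes. In myotubes it had a peak of 482 bp at Tnfaip3, chr10:18732980-18733461, inside the Menin domain and 1095 bp to the left of the ING1 peak of myoblasts. It overlapped a Wdr5 peak of 606 bp (chr10:18733025-18733630) and neither ING1 nor Sin3A. Of all LSD1 myotube peaks 43.3% met Menin, 28.8% Wdr5, 21.9% ING1 of myotubes, 18.8% ING1 of myoblasts and 25.2% Sin3A. Most of them thus missed each of these proteins. Menin replicate 2 also had a peak there, chr10:18733076-18733640. In myoblasts LSD1 had no peak in any window, and the nearest to Tnfaip3 was 967 kb away. Among the 40 kb tiles 10.5% held LSD1 in myotubes and 5.38% in myoblasts. Of the 1855 tiles of 40 kb in which all other 8 lists had a peak, as at Tnfaip3, 64.7% also had LSD1 in myoblasts. Each state had 1 LSD1 list, so this difference has no replicate check. The LSD1 list of myotubes is also the longer one, with 16504 peaks against 4442 in myoblasts, and among its widest 4442 peaks none fell in a window.

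At Nfkbia the ING1 and Sin3A peaks began at almost the same base. ING1 of myotubes was listed at chr12:56593179-56593642, ING1 of myoblasts at chr12:56593179-56593921 and Sin3A at chr12:56593174-56593593. The ING1 peaks of the 2 states shared their left end exactly, as did 0.266% of the 6019 ING1 myotube peaks that overlapped a myoblast peak, and Sin3A began 5 bp before them. The comparison of left ends was not planned and holds for the pooled lists only. In ING1 myoblast replicate 2 the peak was chr12:56593223-56593751, and no ING1 myotube replicate had one. A Wdr5 peak of 2503 bp, chr12:56591708-56594210, covered all 3 pooled peaks, and 1.49% of Wdr5 peaks were at least as wide. A Menin peak of 2189 bp, chr12:56592825-56595013, covered them as well. These 5 lists had 415 bp in common, as they had a common stretch at 55.8% of all ING1 myoblast peaks. MLL3 entered the site from the right, with a peak of 423 bp at chr12:56593785-56594207 that shared 137 bp with ING1 of myoblasts and none with ING1 of myotubes.

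The replicate lists filled the Nfkbia site less than the one at Tnfaip3. Sin3A replicate 1 covered 100% of the 415 bp, ING1 myoblast replicate 2 covered 89.4% and Wdr5 replicate 1 covered 77.1%. Sin3A replicate 2, ING1 myoblast replicate 1, Wdr5 replicates 2 and 3 and all 3 ING1 myotube replicates had no peak there. In all, 3 of 14 replicate lists of the 6 pooled groups covered a part of the Nfkbia stretch, against 8 of 14 at Tnfaip3. These counts describe the 2 stretches only, and no share over other sites is given beside them. The 14 include the 2 of MLL1, which had no pooled peak at Nfkbia, and MLL1 replicate 1 was among the 8. Both Menin replicates had a peak inside the pooled Menin peak but outside the common stretch, in replicate 1 at chr12:56594430-56595005. The replicate 1 peak nearest to the stretch, 570 bp away, was chr12:56592002-56592608, which lay outside that pooled peak. The nearest peak of replicate 2 was 310 bp away and inside it. Menin replicate 2 began at chr12:56593904-56594726, beyond the right end of the ING1 peak of myotubes but within the right end of the ING1 peak of myoblasts. Cover of the common stretch by Menin at Nfkbia was thus seen in the pooled list and in neither replicate.

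**Figure D4:**
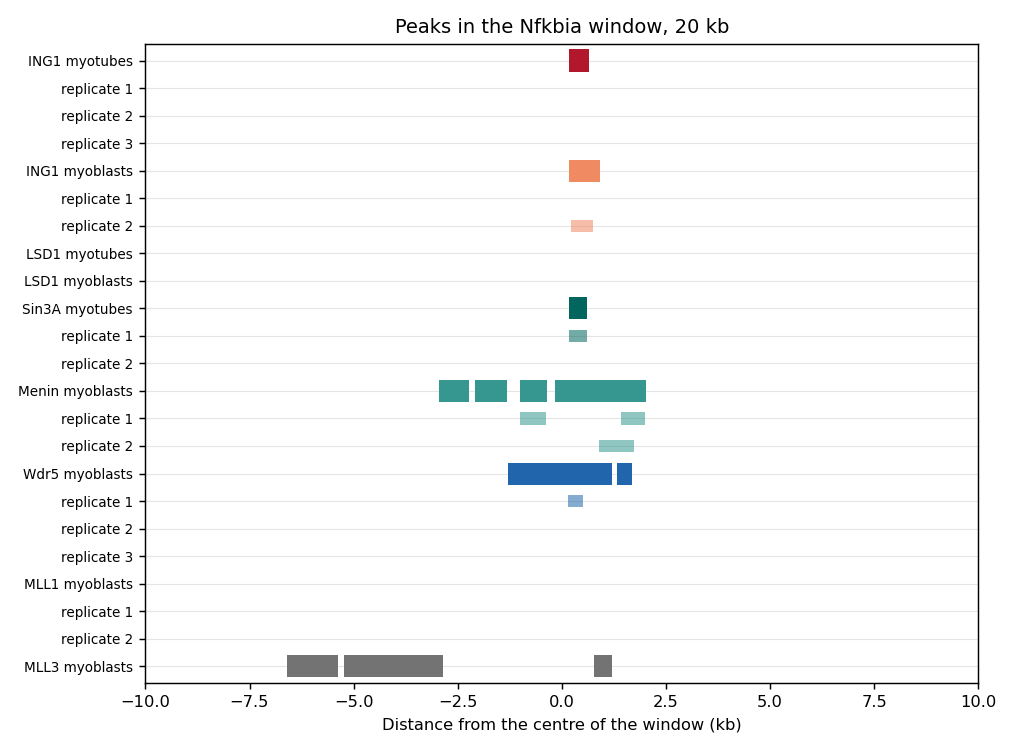
Peaks in the 20 kb Nfkbia window by distance from its centre (kb); thick bars are pooled or single lists and thin bars the replicate lists of the group named above them. ING1 of both states and Sin3A start together just right of the centre, under wide Wdr5 and Menin peaks, the Menin replicate peaks lie on either side, and 2 wide MLL3 peaks stand further left.

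Nfkbia had no MLL1 and no LSD1 peak. The nearest MLL1 peak was 17.2 kb outside the window, and the nearest LSD1 peaks were 78.2 kb away in myotubes and 82.6 kb away in myoblasts. Among the 4372 tiles of 20 kb that held the same 6 lists as Nfkbia, 52.4% also held MLL1, 64.0% LSD1 in myotubes and 54.6% LSD1 in myoblasts. Of the 4572 ING1 myoblast peaks that met the other 4 lists of the common stretch, 28.6% met LSD1 in neither state, as at both Nfkbia and Tnfaip3. To the left of the ING1 site the Nfkbia window held 3 narrower Menin peaks, chr12:56590061-56590773, chr12:56590913-56591688 and chr12:56591990-56592637, the last of which was also listed in Menin replicate 1. A second Wdr5 peak stood to the right, at chr12:56594333-56594685. Further left were 2 MLL3 peaks, chr12:56586394-56587633 and chr12:56587762-56590140. The second of these was 2379 bp wide, a width that 1.78% of MLL3 peaks reached, and it met the first Menin peak. MLL3 covered 20.2% of the Nfkbia window, and 8.68% of 20 kb tiles were covered at least as much.

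ING1 was compared between the states over the 5 windows. The 2 pooled ING1 peaks of myotubes overlapped the 2 of myoblasts, 1 pair each at Nfkbia and Tnfaip3. Over the whole lists 62.1% of ING1 myotube peaks and 72.0% of ING1 myoblast peaks overlapped a peak of the other state. The myotube peaks lay wholly inside the myoblast peaks at both genes, as did 24.7% of the myotube peaks that overlapped one. They were 532 bp at Tnfaip3 and 464 bp at Nfkbia in myotubes, and 733 bp and 743 bp in myoblasts. Medians over the lists were 689.5 bp in myotubes and 723.5 bp in myoblasts. Both ING1 myotube peaks also overlapped Sin3A, Menin and Wdr5, as did 79.7%, 85.3% and 83.5% of all ING1 myotube peaks. MLL1 met 1 of the 2, the one at Tnfaip3, and 34.3% of the list. LSD1 of myotubes met 0 of the 2 and 37.5% of the list, and LSD1 of myoblasts met 0 of the 2 and 34.2%. Myotube replicates 1, 2 and 3 had 0 peaks in the windows, and myoblast replicates 1 and 2 had 0 and 2. Per 1000 peaks of a list the mean was 0 in myotubes (SD 0, n = 3) and 0.181 ± 0.256 in myoblasts (SD, n = 2; exact two-sided permutation p = 0.8). The covered length averaged 0 bp in myotubes and 554 ± 783 bp in myoblasts (SD, n = 2; exact permutation p = 0.8). With 4 of the 5 lists at 0, no arrangement of either set of values gives an exact p under 0.8 (without ties the smallest would be 0.2), so the replicate lists could not test whether the states differ. The myoblast values rest on replicate 2, and without it both differences were 0. Over the whole list 32.7% of pooled ING1 myotube peaks met a replicate list, and 46.3% of those at sites with the 5 lists did; the 2 peaks in the windows did not.

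In the windows of the chemokine and cytokine genes Wdr5, Menin and MLL3 made up 29 of 30 pooled or single peaks (96.7%), against 84.9% of such peaks over all chromosomes. Wdr5 had 57.1 peaks per Mb there, against 22.5 per Mb over all chromosomes, and Menin 38.1 against 26.6. MLL3 had 42.9 against 82.7 per Mb. Of the 21 pooled peaks in these 3 windows 1 met a replicate list, while 11 of the 22 in the inhibitor windows did, and 29.8% of all 170172 pooled peaks did. In the chemokine and cytokine windows 0 of 12 Wdr5 peaks met one, against 16.8% over the Wdr5 list, and 1 of 8 Menin peaks, against 28.9%. In the inhibitor windows 2 of 4 Wdr5 and 4 of 10 Menin peaks did. So did 2 of 2 ING1 myoblast, 2 of 2 Sin3A, 1 of 2 MLL1 and 0 of 2 ING1 myotube peaks there. Over these 4 lists the shares were 58.4%, 63.4%, 40.5% and 32.7%. The totals of the 2 sets of windows thus come from different mixtures of lists.

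Around Ccl2 and Ccl7, adjacent genes in the RefSeq gene order, Wdr5 was the leading factor. Its 6 peaks covered 13.3% of the 30 kb window. Of all 30 kb tiles, 0.349% held at least as many Wdr5 peaks and 1.31% were covered at least as much. The widest, chr11:81846337-81847231, was 895 bp. Menin had 3 peaks, the widest of 756 bp at chr11:81848860-81849615, and MLL3 had 3, the widest of 868 bp at chr11:81841506-81842373. MLL1 had a single peak of 311 bp, chr11:81858920-81859230. That peak lay inside a Wdr5 peak of 893 bp, chr11:81858848-81859740, which MLL3 entered from the right at chr11:81859396-81860160; this Wdr5 peak was picked after its values were seen. Menin and Wdr5 met once, at chr11:81866536-81867016 and chr11:81866479-81866989, a pair also picked afterwards. Over all chromosomes 24.1% of Menin peaks and 59.1% of MLL1 peaks met Wdr5. Of all Wdr5 peaks 29.2% met Menin, 8.56% MLL1 and 22.0% MLL3. None of the 14 replicate lists had a peak at Ccl2 and Ccl7, and without the pooled lists MLL3 alone remained. The nearest ING1 peaks lay 707 kb away in myotubes and 151 kb away in myoblasts, and the nearest Sin3A peak 128 kb away.

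**Figure D5:**
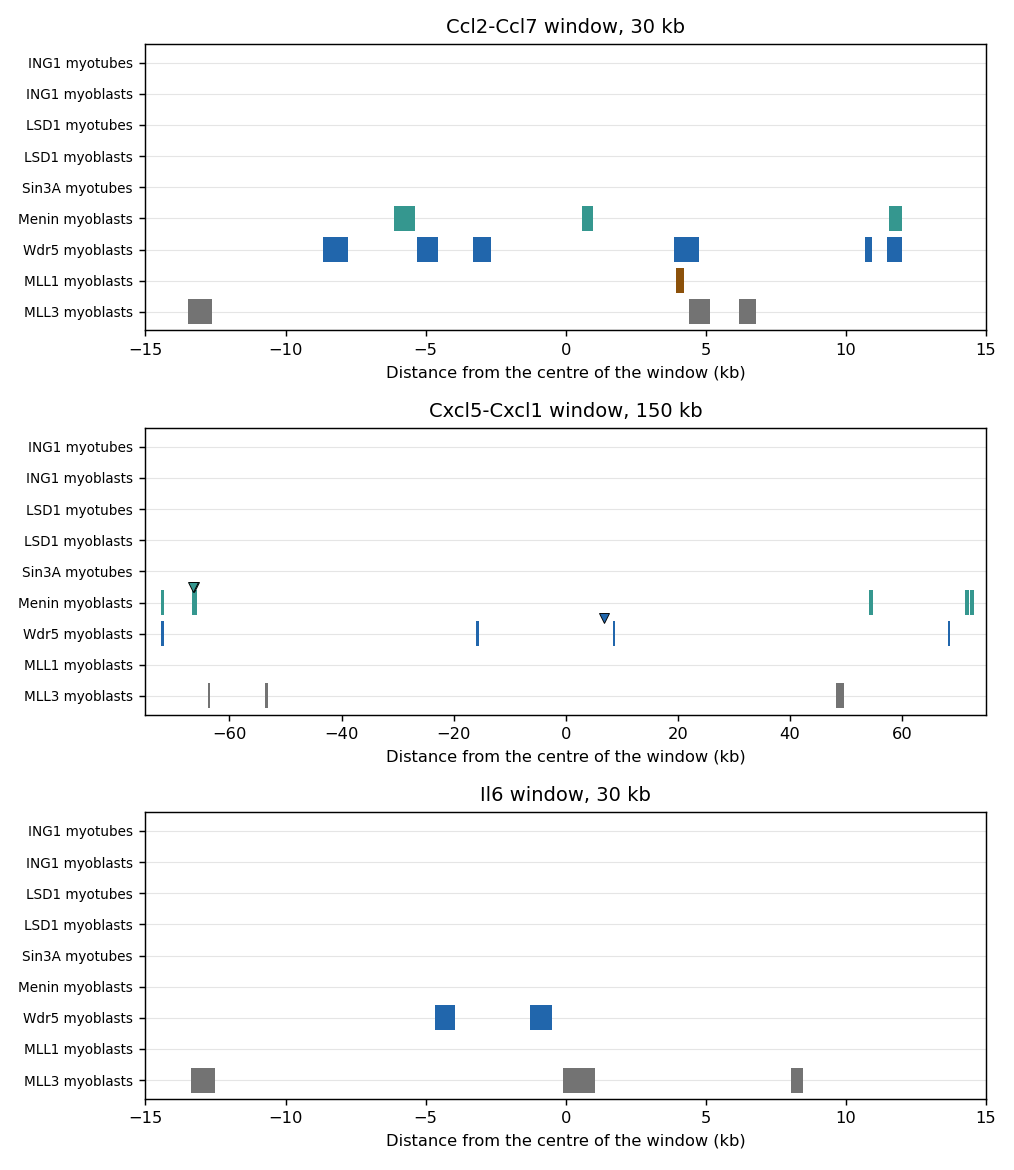
Peaks of the 9 pooled or single lists in the Ccl2-Ccl7, Cxcl5-Cxcl1 and Il6 windows by distance from each window's centre (kb); bars are drawn to scale and triangles mark peaks of replicate lists. The rows of ING1, LSD1 and Sin3A are empty, and triangles stand at 1 Menin peak and beside 1 Wdr5 peak of the Cxcl5-Cxcl1 window.

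The Cxcl5-Cxcl1 window is the longest of the 5, and in the RefSeq gene order the chemokine genes Ppbp, Pf4, Cxcl3 and Cxcl15 lie between its 2 members. Menin had 5 peaks in it, Wdr5 4 and MLL3 3, and 26.6%, 38.9% and 76.9% of 150 kb tiles held at least as many. At least 1 peak of these proteins stood in 53.0%, 73.8% and 90.5% of such tiles. The Menin peak at chr5:91188294-91189205 was the best supported of the cytokine and chemokine windows, with peaks of 727 bp in replicate 1 and 344 bp in replicate 2. It met no other list. The other Menin peaks were chr5:91182697-91183286, which overlapped Wdr5 at chr5:91182734-91183261, then chr5:91309040-91309887, chr5:91326218-91326932 and chr5:91327126-91327772. Wdr5 also had peaks at chr5:91239056-91239546, chr5:91263506-91263735 and chr5:91323124-91323620. Wdr5 replicate 1 had a peak of 685 bp at chr5:91261535-91262219 that no pooled Wdr5 peak met. MLL3 peaks stood alone at chr5:91191242-91191611, chr5:91201422-91201963 and chr5:91303289-91304625. Of ING1, Sin3A and MLL1 the window held none, where 26.9% of 150 kb tiles held ING1 in myotubes, 25.1% ING1 in myoblasts, 36.4% Sin3A and 27.9% MLL1. LSD1 was likewise absent, where 25.2% of tiles held it in myotubes and 15.9% in myoblasts. ING1, Sin3A and MLL1 all had their nearest peak 29.9 to 30.3 kb to the right of the window, ING1 of myotubes at chr5:91360202-91361265.

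Il6 had the fewest proteins. Wdr5 had peaks of 707 bp (chr5:30335340-30336046) and 773 bp (chr5:30338735-30339507), and neither met a replicate list. MLL3 had 3 peaks, chr5:30326622-30327497, chr5:30339911-30341053 and chr5:30348045-30348484, of which the second, 1143 bp wide, stood nearest to a Wdr5 peak without meeting it. No peak in the Il6 window overlapped a peak of another list. Over all chromosomes 29.2% of Wdr5 peaks met Menin and 22.0% met MLL3, and 6.12% of MLL3 peaks met Wdr5, so most peaks of either list missed each of these others. Menin, listed in the other 4 windows and in 27.0% of 30 kb tiles, was absent, and its nearest peak lay 34.5 kb away. The nearest ING1 peaks were 126 kb away in myotubes and 44.6 kb away in myoblasts, and the nearest Sin3A peak 44.7 kb away. Wdr5 was found in 40.3% and MLL3 in 68.4% of 30 kb tiles, so tiles of that length often held them.

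MLL3, the longest list, had 3 peaks in every window, although the windows ran from 20 to 150 kb. Equal counts were therefore not equal densities. MLL3 covered 20.2% of the Nfkbia window and 1.5% of the Cxcl5-Cxcl1 window. At least 3 MLL3 peaks stood in 25.8% of 20 kb tiles and in 76.9% of 150 kb tiles. Tiles with at least 1 MLL3 peak made up 60.0% at 20 kb and 73.7% at 40 kb. Of its 15 window peaks 1 met ING1 of myoblasts, at Nfkbia, 3 met Menin and 3 met Wdr5, against 0.692%, 9.02% and 6.12% of all MLL3 peaks. None of the 15 met LSD1, Sin3A or MLL1, which few MLL3 peaks did anywhere: 1.69% met LSD1 of myotubes, 0.365% LSD1 of myoblasts, 1.33% Sin3A and 0.701% MLL1. MLL3 had 1 list, so these peaks have no replicate check.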

How the data were processed

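Peak lists of the ChIP-seq samples were used. Libraries of input chromatin and of RNA were not analysed here. The deposited values are peak boundaries in bp, other than any score or count, as left and right boundary per the file headers; 2 pooled lists have no header and the same 3 columns. Per the submitters' processing notes bedtools 2.17.0, SAMtools 0.1.19 and Bowtie 0.12.9 were used, with mm9 and NCBIM37 as builds. How peaks were called and replicates pooled is not given in the sources used here. Starts are printed counted from 1, with the deposited left ends taken as counted from 0. Mitochondrial peaks were left out. Overlaps needed 1 bp and were computed in Python 3.11.15 (NumPy 2.4.6), tested on simulated intervals; SciPy 1.17.1 checked the exact permutation tests. Tiles ran to the last peak of each chromosome.

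Members, windows and gene lists were chosen with earlier results of these data known. All 7 genes are named; peaks are named in full where a window held up to 12 in the pooled and single lists, otherwise the widest of each list. Lists of other NF-κB and chemokine genes had been planned but need an mm9 annotation, not used here. The contrast of inhibitor windows with the other windows and the stretches common to several lists were not planned. Promoters are from RefSeq (GRCm38.p6); 4 of 7 members matched. Replicate numbers of ING1 are shared between the states; no label says what a number marks.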

Additional observations from a re-analysis of the deposited data

How the results depend on the processing

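The lists with a peak stayed within 1.5 times of the values above at Tnfaip3, Nfkbia and Cxcl5-Cxcl1 under every alternative run. With 50% of a peak required inside the window or with windows widened by 10 kb (65 peaks in place of 59), the total over the 5 windows also stayed within 1.5 times. The 59 peaks became 31 when each pooled list was replaced by the union of its replicates, 31 with the wider 50% of each list and 28 with pooled peaks met by a replicate list, an alternative chosen after seeing the data. Omission of 1 replicate from the unions gave 29 to 32 (30 without MLL1 replicate 1). With unions or with pooled peaks met by a replicate list, 1 list remained at Il6 (in place of 2) and 1 at Ccl2-Ccl7 (in place of 4), and 1 at each without any replicate. The 79 pairs of a window peak and another list that it met became 34 with unions. ING1 peaks kept between states, 4 of 4 in the pooled lists (2 pairs counted from both sides), became 0 of 2 with unions. The unions hold 0 myotube and 2 myoblast peaks, and 0 were kept without each ING1 replicate. The LSD1 difference of 1 peak became 0 with the widest myotube peaks.

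Myotubes minus myoblasts, ING1 peaks per 1000 differed by -0.181, and by -0.362 to 0 when 1 replicate was left out; covered length differed by -554 bp, and by -1107 to 0 bp. With the replicate block over numbers 1 and 2 the differences stayed at -0.181 and -554 bp (exact sign-flip p = 1 for both, the only value possible with 1 of the 2 pair differences at 0). Without ING1 myoblast replicate 2, Sin3A replicate 1 or MLL1 replicate 1, the unions held 0 window peaks of these factors, and without Wdr5 replicate 1 they held 1 Wdr5 peak in place of 3. Unknown depth limits every absence: a peak not listed may lie under the threshold.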
